A study of Mus musculus with 18 samples.

Results

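Neurons release transmitter when a synaptic vesicle fuses with the presynaptic membrane, and the genes described here come from the gene families of that step. They were taken by gene symbol and comprise the synaptotagmins, the SV2 proteins, the synapsins, the Rab3 GTPases, the VAMPs, the syntaxins, the SNAP proteins, the syntaxin-binding proteins, the complexins, the RIMs and the Munc13s. The rule found 69 genes among the 38924 in the deposited tables. By role they are 17 synaptotagmins, 10 SV2, synapsin and Rab3 genes, 6 VAMPs, 18 syntaxins and SNAPs, 9 syntaxin-binding proteins and complexins, 8 RIMs and Munc13s, and Snap91, a clathrin adaptor that matches by its symbol. Vamp7 and Stxbp3 have no entry under those symbols and are not analysed here. The rule takes whole families, so the 69 also include members of other membrane steps and cell types, such as endosomal syntaxins.

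The mRNA came from spinal cords of 18 mice aged 8 weeks, on a mixed background given as B6;CASTxB6.129. Each library is counted here as 1 mouse, though some libraries of 1 group share a number in their titles whose meaning is not given. All mice carried 1 copy of an Rpl22 allele whose ribosomal protein gains a haemagglutinin (HA) tag after Cre recombination, and tagged ribosomes were pulled down with an HA antibody. Chat-Cre recombines the allele in cells that express choline acetyltransferase, so in spinal cord the tag is in motor neurons and in the other cholinergic cells as well. The 4 groups were Cre P278KY (Chat-Cre with 1 copy of the Gars P278KY allele, 3 mice), Cre WT (Chat-Cre with wild-type Gars, 4 mice), NoCre P278KY (no Cre, 1 copy of P278KY, 6 mice) and NoCre WT (no Cre, wild-type Gars, 5 mice). Gars encodes glycyl-tRNA synthetase, and P278KY is a dominant allele used as a mouse model of Charcot-Marie-Tooth disease, a peripheral neuropathy. Without Cre no ribosome is tagged, so the NoCre libraries show what the antibody and beads bring down unspecifically from whole spinal cord. The study compared the genotypes within Cre mice and each Cre group with its NoCre controls.

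A vesicle SNARE (VAMP) on the vesicle and the target SNAREs syntaxin and SNAP-25 on the plasma membrane zip into a complex that pulls the membranes together. Munc18 proteins (Stxbp genes) and Munc13 proteins (Unc13 genes) set up that complex, complexins clamp it, and synaptotagmins trigger fusion when calcium enters. RIMs and Rab3 tether vesicles at the active zone, synapsins hold the reserve pool, and SV2 proteins are glycoproteins of the vesicle membrane. Motor neurons use this machinery at the neuromuscular junction, and several families have a paralog that is typical of spinal cord and brainstem (Vamp1, Syt2) beside one typical of forebrain (Vamp2, Syt1).

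Library totals ran between 15461440 and 18944769 counts for Cre P278KY, 14659488 and 24028649 for Cre WT, 9876808 and 14450144 for NoCre P278KY, and 8177758 and 11480402 for NoCre WT. The 69 genes took 2.10% to 2.46% of the counts of a Cre P278KY library and 1.75% to 2.76% of a Cre WT library, against 0.537% to 1.02% (NoCre P278KY) and 0.303% to 1.01% (NoCre WT). Cholinergic markers (8 genes, Chat among them) summed to 1335 to 1700 CPM (counts scaled to the effective library size) in Cre P278KY and 1554 to 2928 CPM in Cre WT, against 34.7 to 49.0 CPM in NoCre P278KY and 77.6 to 89.9 CPM in NoCre WT. The libraries fall into 2 pools, read from index sequences and sample numbers that restart in the library descriptions. All 3 Cre P278KY libraries (2 from female and 1 from male mice, by Xist and Ddx3y) were in pool 1, as were 2 Cre WT libraries (both male), while the other 2 Cre WT libraries (both female) were in pool 2. NoCre libraries of both genotypes were in both pools. The pool 2 Cre WT libraries also had more oligodendrocyte RNA: 8 markers summed to 698, 781 and 1757 CPM in Cre P278KY mice 1 to 3 and to 746, 1181, 3603 and 4078 CPM in Cre WT mice 1 to 4. Protein-coding genes took 64.0% to 81.5% of the counts in Cre P278KY and 63.6% to 87.0% in Cre WT, against 37.5% to 60.4% for NoCre P278KY libraries and 23.03% to 54.8% for those of NoCre WT, with the lowest shares in NoCre WT mice 4 and 5. Mitochondrial ribosomal RNA took 2.16% to 4.88% in Cre P278KY and 1.36% to 3.36% in Cre WT, against 24.2% to 38.6% for NoCre P278KY libraries and 31.8% to 53.8% for those of NoCre WT.

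Per length, Snap25 led every group. This target SNARE alone had 10579 ± 765 TPM (a level per transcript length) in Cre P278KY and 11154 ± 3468 TPM in Cre WT, against 3192 ± 1040.5 TPM in NoCre P278KY and 2371 ± 1468 TPM in NoCre WT (mean ± SD, n = 3, 4, 6 and 5). In Cre P278KY it held 65.3% of the summed TPM of the 69 genes. Vamp1, the vesicle SNARE, came next in both Cre groups, with 1014 ± 107 TPM in Cre P278KY and 1328 ± 125 TPM in Cre WT. Cplx1 (complexin 1) had 851 ± 183 TPM in Cre P278KY and 905 ± 209 TPM in Cre WT, and Rab3a had 805 ± 73.9 TPM in Cre P278KY and 759 ± 72.3 TPM in Cre WT, so within each Cre group the ranks of Cplx1 and Rab3a lie within their SDs. The order behind them differed between the genotypes in Cre mice: Vamp2 had rank 5 in Cre P278KY with 378 ± 33.0 TPM and rank 8 in Cre WT with 193 ± 62.2 TPM, while Rab3b had 98.2 ± 7.51 TPM in Cre P278KY and rank 6 in Cre WT with 353 ± 46.7 TPM. Snap25, Cplx1 and Vamp1 led both NoCre groups too, at lower levels. At the other end, Cplx3, Cplx4 and Syt8 had at most 7 counts in any library and entered no test.

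In both genotypes Cre immunoprecipitates held more Snap25, Vamp1, Cplx1 and Rab3a mRNA than NoCre immunoprecipitates, and less Snap23, Vamp3, Vamp8, Stxbp2 and Unc13d mRNA. Syt1, Sv2a and Unc13a did not pass in either genotype. In P278KY mice 24 of the 66 genes tested were higher and 19 lower in Cre than in NoCre (65.2%, against 59.4% of all 17133 genes tested in either direction, 28.2% higher and 31.2% lower). In WT mice 24 were higher and 21 lower in Cre than in NoCre (68.2%, against 59.7% of all genes, 28.5% higher and 31.2% lower). The shares called are thus near those of all genes. The shares of protein-coding and mitochondrial RNA given above differed between Cre and NoCre in both genotypes, and their part in these fold changes was not tested. Within pool 2 alone, 16 of the 45 genes called in WT mice did not pass, and 29.7% of all genes passed there. Scaled by library size alone, the WT split was 24 higher and 9 lower (28.2% and 19.5% of all genes, 47.6% in all), and the median of all genes moved to 0.20, against -0.12 with TMM scaling (log2). In these bulk samples, fewer cells of a type and less RNA per cell cannot be told apart. Cre and NoCre libraries were fully apart for 43 of the 66 genes in P278KY mice (56.2% of all genes) and for 38 in WT mice (43.1% of all genes). All fold changes and adjusted p-values of a gene come from edgeR (quasi-likelihood), with p-values adjusted after Benjamini and Hochberg across every gene tested.

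**Figure D1:**
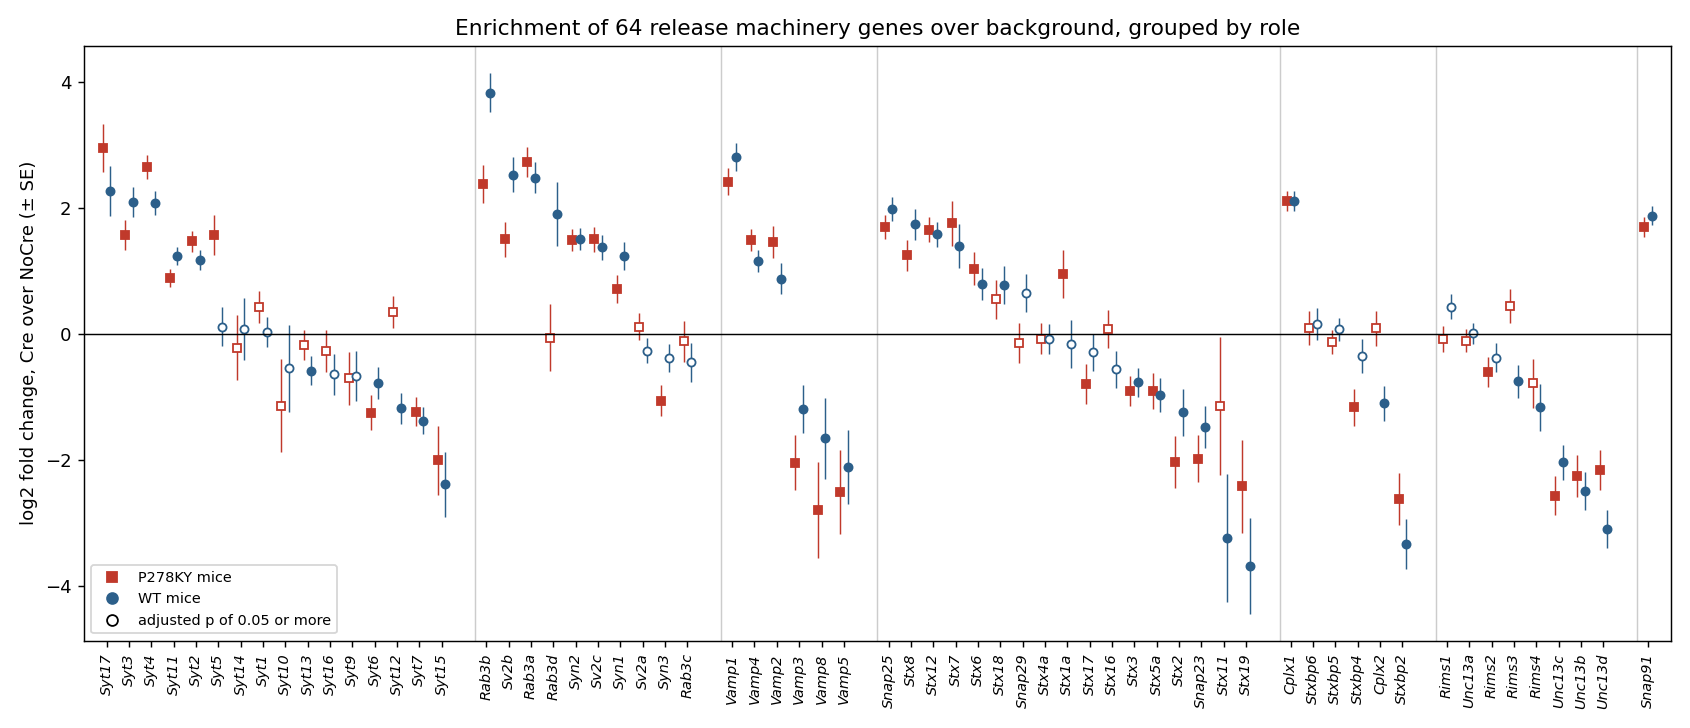
Log2 fold change of Cre over NoCre (± SE) for 64 of the 66 genes tested, by role, with P278KY mice as squares and WT mice as circles (filled where the adjusted p is under 0.05). The highest values are those of Syt17 in P278KY mice (2.96) and Rab3b in WT mice (3.83), and the Munc13 genes other than Unc13a lie at the low end in both.

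Of the Rab3 GTPases, Rab3a and Rab3b rose in both genotypes. Rab3a, the main neuronal Rab3, had 712, 561 and 810.1 CPM in Cre P278KY, against 90.7 to 118 (median 104) CPM in NoCre P278KY. It had 950.1, 915, 391 and 599.7 CPM in Cre WT, against 103, 88.9, 106, 178 and 163 CPM in NoCre WT. The Cre libraries were above all NoCre libraries in both genotypes, and the log2 fold changes were 2.73 ± 0.24 in P278KY mice and 2.48 ± 0.24 in WT mice (SE, adjusted p = 9.38e-09 and 3.5e-08). Rab3b, a paralog with a more limited range of cells, had 66.3, 49.9 and 94.9 CPM in Cre P278KY, against 10.7 to 17.8 (median 12.3) CPM in NoCre P278KY, and 277.6, 366, 196 and 214 CPM in Cre WT, against 19.6, 11.4, 16.4, 10.2 and 34.9 CPM in NoCre WT. It rose by 2.38 in P278KY mice and by 3.83 in WT mice (log2, adjusted p = 1.06e-06 and 3.83e-09). Rab3d, best known from secretory granules of gland cells, was higher in Cre than in NoCre in WT mice (1.91, adjusted p = 0.00278), although NoCre WT mouse 4 overlapped the Cre WT libraries, and within pool 2 alone its adjusted p was 0.174. In P278KY mice its value was -0.05 (adjusted p = 0.934). Rab3c had values of -0.11 (adjusted p = 0.781) in P278KY mice and -0.45 (adjusted p = 0.22) in WT mice, where it was -1.45 (adjusted p = 0.000893) within pool 1.

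Of the SV2 paralogs, Sv2b and Sv2c rose in both genotypes and Sv2a did not pass. Sv2b had 209.7, 239 and 139 CPM in Cre P278KY, against 59.4 to 82.2 (median 69.3) CPM in NoCre P278KY, and 359, 211, 464 and 315 CPM in Cre WT, against 77.3, 83.7, 64.1, 27.3 and 39.0 CPM in NoCre WT, with log2 fold changes of 1.50 (adjusted p = 9.07e-05) and 2.53 (adjusted p = 1.54e-07) for P278KY and WT mice. Sv2c rose by 1.50 (adjusted p = 2.55e-06) in P278KY mice and by 1.38 (adjusted p = 5.33e-06) in WT mice. Sv2a, the paralog found in most neurons, had 109.7, 102 and 123 CPM in Cre P278KY, against 83.7 to 131 (median 96.8) CPM in NoCre P278KY, and 74.2, 62.0, 93.7 and 100.5 CPM in Cre WT, against 94.9, 74.5, 77.7, 135 and 114 CPM in NoCre WT, with overlapping groups in both genotypes. Of the synapsins, Syn1 rose by 0.71 (adjusted p = 0.0095) in P278KY mice and by 1.24 (adjusted p = 5.31e-05) in WT mice. Of the 10 genes of this role 6 were higher and 1 lower in P278KY mice (28.2% and 31.2% of all genes). In WT mice 7 were higher and none lower (28.5% and 31.2% of all genes).

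Of the 16 synaptotagmins tested, 6 were higher and 3 lower in P278KY mice, where 28.2% and 31.2% of all genes were. In WT mice 5 were higher and 5 lower (28.5% and 31.2% of all genes). Syt4, a family member of vesicles and granules that binds calcium poorly, had 600.4, 482 and 481 CPM in Cre P278KY, against 68.8 to 91.3 (median 84.4) CPM in NoCre P278KY (log2 fold change 2.65 ± 0.19, SE, adjusted p = 4.33e-10). In WT mice it had 441, 264, 352 and 318 CPM in Cre, against 58.2, 110.2, 83.9, 83.5 and 69.1 CPM in NoCre (log2 fold change 2.09 ± 0.19, SE, adjusted p = 1.32e-08). The groups did not overlap in either genotype. Syt17, an atypical synaptotagmin without a membrane anchor, had 10.1, 12.5 and 13.9 CPM in Cre P278KY, against 1.199 to 2.08 (median 1.53) CPM in NoCre P278KY, and 7.66, 10.1, 5.24 and 5.47 CPM in Cre WT, against 0.524, 1.11, 3.08, 0.996 and 1.52 CPM in NoCre WT, without overlap in either genotype. Its log2 fold changes were 2.96 (adjusted p = 1.62e-06) in P278KY mice and 2.27 (adjusted p = 4.92e-05) in WT mice, and its adjusted p in WT mice was 0.103 within pool 2. Syt3, a high-affinity calcium sensor, rose by 1.58 (adjusted p = 1.05e-05) in P278KY mice and by 2.09 (adjusted p = 2.5e-07) in WT mice.

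Syt2 and Syt1 are the fast calcium sensors of synchronous release. Syt2 had 617, 628 and 533 CPM in Cre P278KY, against 191 to 233 (median 216) CPM in NoCre P278KY, and 617, 375, 627 and 515 CPM in Cre WT, against 233, 246, 218, 250.04 and 232 CPM in NoCre WT. Cre and NoCre libraries did not overlap in either genotype, and the log2 fold changes were 1.47 (adjusted p = 1.76e-07) in P278KY mice and 1.18 (adjusted p = 2.17e-06) in WT mice. Syt1 had 107, 107 and 98.5 CPM in Cre P278KY, against 62.4 to 97.4 (median 75.6) CPM in NoCre P278KY, and 46.5, 39.8, 77.3 and 70.8 CPM in Cre WT, against 61.3, 87.0, 60.4, 42.0 and 35.0 CPM in NoCre WT. The log2 fold changes of Syt1 were 0.43 (95% interval -0.06 to 0.92) in P278KY mice and 0.03 (-0.44 to 0.51) in WT mice, neither past the threshold. In WT mice the pools differed in sign, since Syt1 was -0.75 (adjusted p = 0.00878) within pool 1 and 0.68 (adjusted p = 0.107) within pool 2. Syt7, the sensor of slow and asynchronous release, was lower in Cre than in NoCre, at -1.23 (adjusted p = 0.000125) in P278KY mice and -1.37 (adjusted p = 1.43e-05) in WT mice, and so was Syt6, at -1.25 (adjusted p = 0.000611) in P278KY mice and -0.77 (adjusted p = 0.0117) in WT mice. The Syt6 value in WT mice was -0.16 (adjusted p = 0.768) within pool 2, and 4 of 20 alternatives did not keep the call.

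Of the 6 VAMPs tested, Vamp1, Vamp2 and Vamp4 were higher and Vamp3, Vamp5 and Vamp8 lower in Cre than in NoCre in both genotypes. Of all genes tested, 28.2% were higher in P278KY mice and 28.5% in WT mice, and 31.2% were lower in each. Within pool 2 alone, 2 VAMPs were higher and 1 lower in WT mice (14% and 15.6% of all genes). Vamp1 had 1956, 1512 and 2129 CPM in Cre P278KY, against 257 to 500.1 (median 327) CPM in NoCre P278KY (log2 fold change 2.42 ± 0.22, SE, adjusted p = 1.21e-08). It had 3469.7, 3293, 1578 and 2214 CPM in Cre WT, against 339, 349.8, 361, 420.2 and 412 CPM in NoCre WT (log2 fold change 2.81 ± 0.22, SE, adjusted p = 2.24e-09). Every Cre library was above every NoCre library. Vamp2 rose by 1.46 (adjusted p = 4.6e-05) in P278KY mice and by 0.88 (adjusted p = 0.00413) in WT mice, the second with an adjusted p of 0.134 within pool 2. Vamp8, a VAMP of endosomes and granules, fell by 2.79 in P278KY mice (adjusted p = 0.0037) and by 1.65 in WT mice (adjusted p = 0.0321) on the log2 scale. In WT mice this rested on few reads, since Vamp8 had 0.125, 0.33, 1.86 and 3.01 CPM in Cre WT, against 6.29, 6.58, 4.47, 1.79 and 2.28 CPM in NoCre WT, and the groups overlapped. Vamp3, a VAMP of constitutive exocytosis and recycling, had -2.04 (adjusted p = 0.000503) in P278KY mice and -1.19 (adjusted p = 0.0109) in WT mice, where it was -0.32 (adjusted p = 0.517) within pool 2 and -2.89 (adjusted p = 1.19e-07) within pool 1. Vamp5, known from muscle, had -2.50 (adjusted p = 0.00302) in P278KY mice and -2.11 (adjusted p = 0.00389) in WT mice (adjusted p = 0.117 within pool 1). For Vamp8 in WT mice the log2 fold change ran from -4.81 to -0.26 over 20 alternatives and passed in 14 of them.

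Of the 18 syntaxins and SNAPs, 6 were higher and 6 lower in each genotype, near the shares of all genes (28.2% and 31.2% in P278KY mice, 28.5% and 31.2% in WT mice). Snap25 had 9892, 8869 and 11546 CPM in Cre P278KY, against 2719 to 3818 (median 3072) CPM in NoCre P278KY (log2 fold change 1.70 ± 0.19, SE, adjusted p = 1.8e-07), and 13333, 9102, 10317 and 10768 CPM in Cre WT, against 3098, 2559, 3721, 2487 and 1864 CPM in NoCre WT (log2 fold change 1.99 ± 0.19, SE, adjusted p = 1.85e-08). Its broadly expressed paralog Snap23 had 4.55, 2.73 and 4.80 CPM in Cre P278KY, against 10.3 to 20.7 (median 16.3) CPM in NoCre P278KY, and 3.92, 3.22, 5.85 and 8.52 CPM in Cre WT, against 12.3, 24.6, 17.1, 11.2 and 10.0 CPM in NoCre WT. Snap23 was lower in every Cre library than in any NoCre library of its genotype (-1.98, adjusted p = 0.000119 in P278KY mice and -1.48, adjusted p = 0.00065 in WT mice). In WT mice it was -0.85 (adjusted p = 0.137) within pool 2. The endosomal syntaxin Stx12 rose by 1.66 (adjusted p = 7.66e-07) in P278KY mice and 1.58 (adjusted p = 1.02e-06) in WT mice, and Stx7, another endosomal syntaxin, by 1.76 (adjusted p = 0.000337) in P278KY mice and 1.40 (adjusted p = 0.00214) in WT mice (adjusted p = 0.0806 within pool 2). Stx2, a plasma membrane syntaxin of many cell types, fell to 0.9, 2.24 and 1.10 CPM in Cre P278KY, against 3.86 to 7.15 (median 5.94) CPM in NoCre P278KY (-2.03, adjusted p = 0.000315). It had 1.87, 2.14, 1.74 and 1.89 CPM in Cre WT, against 2.97, 4.96, 4.77, 2.59 and 7.31 CPM in NoCre WT (-1.24, adjusted p = 0.00686), a call that 4 of 20 alternatives did not keep. Stx1a had 5.45, 4.28 and 4.73 CPM in Cre P278KY, against 1.17 to 4.26 (median 2.21) CPM in NoCre P278KY (log2 fold change 0.95 ± 0.38, SE, adjusted p = 0.0347), a call that 12 of 18 alternatives did not keep.

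Complexin 1 was higher in Cre libraries of both genotypes. Cplx1, the complexin typical of motor synapses, rose by 2.12 ± 0.16 in P278KY mice and by 2.12 ± 0.16 in WT mice (log2, SE, adjusted p = 9.97e-10 and 1.23e-09). Cplx2 had 112, 120.1 and 158 CPM in Cre P278KY, against 81.6 to 202 (median 112) CPM in NoCre P278KY, with a value of 0.09 (adjusted p = 0.786), and 63.2, 42.8, 74.5 and 105 CPM in Cre WT, against 107, 113, 152, 216 and 179 CPM in NoCre WT. In WT mice all 4 Cre libraries were below all 5 NoCre libraries (-1.10, adjusted p = 0.00154), and with library size alone as the scaling the adjusted p was 0.132. Stxbp2, a Munc18 of blood cells and epithelia, had 1.52, 1.22 and 3.84 CPM in Cre P278KY, against 10.6 to 20.0 (median 12.4) CPM in NoCre P278KY, and 1.37, 2.14, 0.945 and 1.08 CPM in Cre WT, against 9.34, 10.9, 22.97, 13.5 and 11.6 CPM in NoCre WT. It fell in both genotypes (-2.62, adjusted p = 2.03e-05 in P278KY mice and -3.34, adjusted p = 4.16e-07 in WT mice).

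None of the 8 RIM and Munc13 genes was higher in Cre than in NoCre, while 4 were lower in P278KY mice and 5 in WT mice (3 in each with library size alone as the scaling). Of all genes tested, 28.2% were higher in P278KY mice and 28.5% in WT mice, and 31.2% were lower in each. Within pool 1 alone, and without NoCre P278KY mouse 6, Rims3 was higher in P278KY mice (named after its value was seen). Unc13a, the main neuronal Munc13, had 58.1, 52.1 and 52.3 CPM in Cre P278KY, against 51.8 to 65.2 (median 58.8) CPM in NoCre P278KY, and 71.5, 80.9, 63.8 and 53.6 CPM in Cre WT, against 62.7, 55.4, 60.5, 66.9 and 89.3 CPM in NoCre WT. Its groups overlapped, and the 95% intervals of its log2 fold change were -0.46 to 0.25 in P278KY mice and -0.33 to 0.35 in WT mice. Rims1, a long RIM that scaffolds the active zone, had values of -0.08 (adjusted p = 0.76) in P278KY mice and 0.44 (adjusted p = 0.0534) in WT mice, also with overlap, and in WT mice it passed in 4 of 20 alternatives. The other Munc13 genes fell in both: Unc13b was at -2.25 in P278KY mice and -2.50 in WT mice, Unc13c at -2.56 in P278KY mice and -2.03 in WT mice, and Unc13d, the Munc13 of blood cells, at -2.16 in P278KY mice and -3.09 in WT mice (log2, largest adjusted p = 9.39e-06). Snap91 (AP180), which recruits clathrin to retrieve vesicle membrane, rose by 1.70 (adjusted p = 1.74e-08) in P278KY mice and 1.88 (adjusted p = 3.98e-09) in WT mice. Microglial markers summed to 10.3 to 14.3 CPM in Cre P278KY, against 101 to 172 CPM in NoCre P278KY, and to 10.4 to 17.2 CPM in Cre WT, against 108 to 151 CPM in NoCre WT (8 genes). Vessel markers summed to 10.1 to 24.9 CPM in Cre P278KY, against 115 to 179 CPM in NoCre P278KY, and to 11.9 to 69.3 CPM in Cre WT, against 130.2 to 154 CPM in NoCre WT (6 genes). Their part in the falls of genes was not tested.

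Between the genotypes, Cre P278KY libraries had less Rab3b and Rab3d and more Syt12 and Rims3 mRNA than Cre WT libraries. These 4 of the 64 genes tested passed (6.25%, against 2.32% of all 14717 genes tested, 1.22% higher and 1.11% lower). With library size alone as the scaling, none were higher and 2 lower (0.632% and 0.374% of all genes). Of the 8 cholinergic markers, 1 was lower in Cre P278KY and 4 had an unadjusted p under 0.05. That 1 was Chodl, a marker of fast motor neurons, at -2.53 ± 0.32 (SE, adjusted p = 0.0032). Calca, the precursor of CGRP, was at -1.90 ± 0.42 (SE, adjusted p = 0.0512) and Chat at -0.17 ± 0.26 (SE, adjusted p = 0.811). The list did not move in 1 direction. By mean CPM, Slc10a4 (180 against 294) and Prph (357 against 462) were also lower in Cre P278KY than in Cre WT. Slc5a7 (675 against 500), Isl1 (15.3 against 9.97) and Mnx1 (14.2 against 10.7) were higher. The part of these cells in the genotype difference was not tested. At an unadjusted p under 0.05 were 20 of the 64 genes (31.2%, against 16.2% of all genes), and the groups did not overlap for 21 (32.8%, against 16.6% of all genes), 14 with every Cre P278KY library above and 7 with every one below the Cre WT libraries. All of these values come from the 7 Cre libraries alone, while the CPM printed use the scaling of all 18 libraries.

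Rab3b (chromosome 4, 108879063-108943324, plus strand, GRCm38) had 66.3, 49.9 and 94.9 CPM in Cre P278KY, against 277.6, 366, 196 and 214 CPM in Cre WT. All 3 P278KY libraries were below all 4 WT libraries, and mice 3 and 4 (pool 2) had the lower WT values. It fell by 1.87 ± 0.27 on the log2 scale (SE, adjusted p = 0.00644). Rab3d (chromosome 9, 21907491-21918192, minus strand) had 1.28, 2.00 and 2.06 CPM in Cre P278KY, against 10.0, 8.25, 5.91 and 7.79 CPM in Cre WT, again without overlap, and fell by 2.14 ± 0.32 (adjusted p = 0.00785). Its level was low, at no more than 194 counts in any library. The other Rab3 genes did not pass: Rab3a had 712, 561 and 810.1 CPM in Cre P278KY and 950.1, 915, 391 and 599.7 CPM in Cre WT (-0.01, 95% interval -0.57 to 0.55), and Rab3c had 231, 273 and 194 CPM in Cre P278KY and 113, 60.6, 271 and 180.4 CPM in Cre WT (0.58, -0.28 to 1.44).

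Syt12 (chromosome 19, 4445908-4477447, minus strand), a synaptotagmin that lacks the calcium-binding residues, had 31.1, 24.6 and 20.9 CPM in Cre P278KY, against 8.47, 11.1, 10.2 and 8.56 CPM in Cre WT. All 3 P278KY libraries were above all 4 WT libraries, and it rose by 1.45 ± 0.22 (log2, SE, adjusted p = 0.00727). Rims3 (chromosome 4, 120854816-120896579, plus strand), a short RIM that keeps only the last of the C2 domains, had 36.1, 26.4 and 40.6 CPM in Cre P278KY, against 17.2, 13.4, 15.8 and 19.9 CPM in Cre WT, and rose by 1.06 ± 0.23 (adjusted p = 0.0442). For both, the Cre P278KY values were within or near the NoCre range (16.1 to 24.2 CPM for Syt12 and 18.5 to 43.2 CPM for Rims3 in NoCre P278KY, and 15.2 to 35.3 CPM for Syt12 and 21.5 to 39.3 CPM for Rims3 in NoCre WT), and the Cre WT values were at the low end or below it. Exons of Rab3b and of Syt12 overlap a gene on the opposite strand, but those genes, 8030443G20Rik and A930001C03Rik, had at most 1 and 5 counts in any library.

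**Figure D2:**
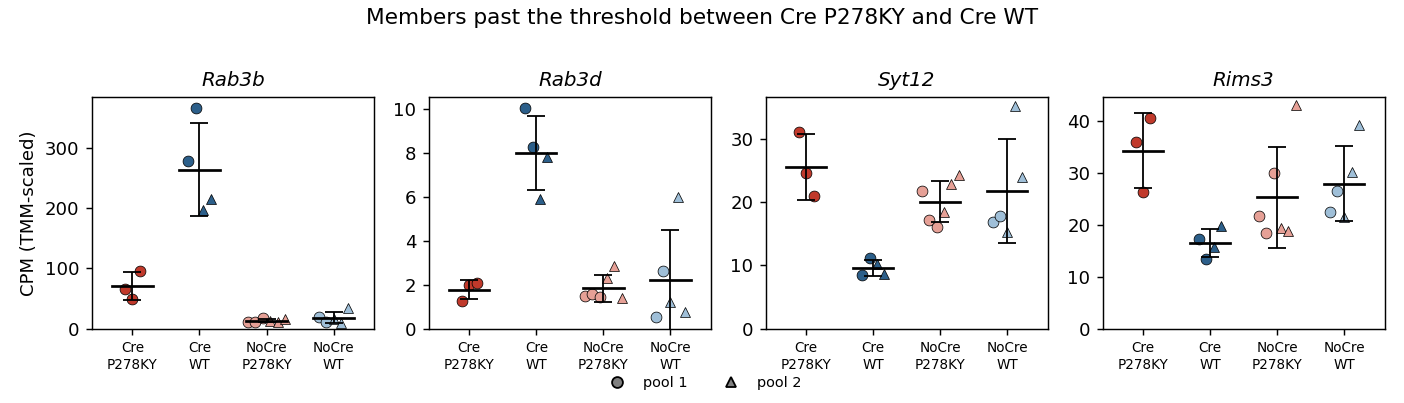
CPM by library of the 4 genes past the threshold between Cre P278KY and Cre WT, with circles for pool 1, triangles for pool 2, lines for the mean and bars for 1 SD (n = 3, 4, 6 and 5). Cre P278KY and Cre WT do not overlap in any of the panels.

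Genotype and pool are tied, since Cre P278KY had no library in pool 2, so the comparison was also made within pool 1, 3 libraries against 2. The log2 fold changes there were -2.12 for Rab3b (adjusted p = 0.000463), -2.30 for Rab3d (0.00377), 1.47 for Syt12 (0.00692) and 1.23 for Rims3 (0.0138), so all 4 were as large within the pool. In pool 1 the Cre WT libraries were both male and 2 of the Cre P278KY libraries female, and with sex as a covariate over the 7 libraries the 4 values were -1.79, -2.14, 1.46 and 1.05. The calls rest on 3 mutant mice: without Cre P278KY mouse 1 the log2 fold changes were -1.86, -1.98, 1.25 and 1.00, but no adjusted p passed (0.0696, 0.0615, 0.0706 and 0.223). Over all 17 alternatives, Rab3b and Rab3d passed in 16, Syt12 in 15 and Rims3 in 10, with adjusted p of 6.38e-09 to 0.0696, 9.05e-08 to 0.0615, 8.68e-07 to 0.0706 and 0.00193 to 0.223, in that order. These include the fit with the shared title number as a block, which set Cre P278KY libraries of pool 1 against Cre WT libraries of pool 2. Rims3 was also lost without any 1 of Cre WT mice 1 to 3 or Cre P278KY mice 2 and 3.

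The promoters of genes that passed between Cre P278KY and Cre WT are shown to give the sequence at their start, as the 250 bases before the start in RefSeq (GRCm38.p6), 5′ to 3′ on the strand of the gene, with GC boxes (GGGCGG on either strand, the letters of the Sp1 motif) in capitals. Syt12 has no entry in that table.
Rab3b promoter, chr4:108878820-108879069 (plus strand): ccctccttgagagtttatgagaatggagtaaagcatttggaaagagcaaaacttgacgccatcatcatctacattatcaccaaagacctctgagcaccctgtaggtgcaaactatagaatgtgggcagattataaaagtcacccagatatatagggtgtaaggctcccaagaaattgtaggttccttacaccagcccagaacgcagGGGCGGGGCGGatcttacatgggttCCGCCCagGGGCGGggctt
Rab3d promoter, chr9:21918184-21918433 (minus strand): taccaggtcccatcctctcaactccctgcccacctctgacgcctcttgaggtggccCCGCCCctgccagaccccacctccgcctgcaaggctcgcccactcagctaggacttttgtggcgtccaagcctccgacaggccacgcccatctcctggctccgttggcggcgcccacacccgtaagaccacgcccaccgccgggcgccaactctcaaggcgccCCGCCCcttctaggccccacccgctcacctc
Rims3 promoter, chr4:120854549-120854798 (plus strand): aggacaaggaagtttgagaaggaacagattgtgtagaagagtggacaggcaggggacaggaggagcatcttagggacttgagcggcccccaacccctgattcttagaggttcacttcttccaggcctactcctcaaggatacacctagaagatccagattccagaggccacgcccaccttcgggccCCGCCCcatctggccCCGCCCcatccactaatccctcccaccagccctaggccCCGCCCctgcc
The 3 windows held 4, 2 and 3 GC boxes in the order shown, and 32.7% of the windows of all 32851 RefSeq promoters held at least 1, as did 59.4% of the 69 windows found for 53 of the genes. No match to TGATGNAA (the ATF4 CARE element, in 3.45% of all windows and 1.45% of those of these genes), TGACGTCA (the cyclic AMP response element, 1.55% and 1.45%) or the NRF1 motif (3.74% and 7.25%) was found on either strand of the 3 windows. Of the release genes, Syt1 held the CARE letters, Syn1 the TGACGTCA letters, and Snap23, Snap29, Stx12, Stx2 and Stxbp5 the NRF1 letters. A match says only that these letters are in the window.

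Of the 17 genes followed as the core of the machinery, none passed between Cre P278KY and Cre WT, with log2 fold changes of -0.76 to 0.98 and adjusted p of 0.0754 to 0.994. Vamp2 had 575, 425 and 636 CPM in Cre P278KY, against 336, 276, 185 and 325 CPM in Cre WT. The P278KY libraries were all above the WT libraries, and the log2 fold change was 0.98 (95% interval 0.50 to 1.46, adjusted p = 0.0754). Vamp1 had 1956, 1512 and 2129 CPM in Cre P278KY, against 3469.7, 3293, 1578 and 2214 CPM in Cre WT, where the pool 1 libraries of WT were the highest (-0.47, -0.99 to 0.06). Syt1 had 107, 107 and 98.5 CPM in Cre P278KY, against 46.5, 39.8, 77.3 and 70.8 CPM in Cre WT, without overlap (0.84, 0.33 to 1.36, adjusted p = 0.145). Syt2 had 617, 628 and 533 CPM in Cre P278KY, against 617, 375, 627 and 515 CPM in Cre WT (0.17, -0.26 to 0.61). Sv2b had 209.7, 239 and 139 CPM in Cre P278KY, against 359, 211, 464 and 315 CPM in Cre WT, with an overlap (-0.76, -1.35 to -0.17). Cplx2 had 112, 120.1 and 158 CPM in Cre P278KY, against 63.2, 42.8, 74.5 and 105 CPM in Cre WT, without overlap (0.86, 0.28 to 1.45).

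For Snap25, the most abundant gene, the log2 fold change was -0.09 (-0.48 to 0.31), for Cplx1 -0.13 (-0.52 to 0.26), for Syn1 -0.10 (-0.45 to 0.26), for Sv2c -0.14 (-0.48 to 0.20) and for Unc13a -0.28 (-0.62 to 0.06). Rims1 had 43.7, 47.3 and 53.3 CPM in Cre P278KY, against 71.0, 53.9, 76.1 and 65.9 CPM in Cre WT, with all P278KY libraries below (-0.45, adjusted p = 0.284). Stx1a was at 0.77 (0.19 to 1.36) and Sv2a at 0.45 (0.01 to 0.88).

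Further genes among the 10 with the smallest p did not pass between Cre P278KY and Cre WT. Syt5, a calcium-binding synaptotagmin, had 31.6, 20.8 and 33.3 CPM in Cre P278KY, against 14.1, 19.6, 9.08 and 16.4 CPM in Cre WT (0.98, adjusted p = 0.107), and Syt17 had 10.1, 12.5 and 13.9 CPM in Cre P278KY, against 7.66, 10.1, 5.24 and 5.47 CPM in Cre WT (0.82, adjusted p = 0.157). Syt3 had 129, 124 and 134 CPM in Cre P278KY, against 232, 273, 141 and 194 CPM in Cre WT (-0.67, adjusted p = 0.163), with all P278KY libraries below. Stx16, a syntaxin of the trans-Golgi network, had 35.0, 43.7 and 33.8 CPM in Cre P278KY, against 23.3, 12.5, 25.4 and 24.1 CPM in Cre WT (0.82, adjusted p = 0.171). By role, 1 synaptotagmin rose, 2 of the SV2, synapsin and Rab3 genes fell and 1 of the RIMs and Munc13s rose, and none of the VAMPs, target SNAREs, or STXBPs and complexins passed. Among all genes tested, 1.22% rose and 1.11% fell. The median log2 fold change of the 64 genes was 0.01 and that of all genes -0.01.

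Within pool 1 the count was larger, at 9 higher and 5 lower (4.3% and 4.81% of all genes tested there), and with pool as a covariate it was 11 and 5 (5.44% and 5.95% of all genes). In all, 9.1% of all genes were called within pool 1 and 11.4% with the covariate, so the count of all genes was larger in these fits too. Beside the 4 genes above, pool 1 alone called Rab3c (1.48), Cplx2 (1.35), Syt1 (1.34), Stx16 (1.12), Vamp2 (0.90), Syt7 (0.87) and Sv2a (0.78) higher, and Syt3 (-0.89), Stx18 (-0.85) and Vamp1 (-0.79) lower in Cre P278KY (log2). In these libraries oligodendrocyte markers summed to 698, 781 and 1757 CPM in Cre P278KY and to 746 and 1181 CPM in Cre WT. Inhibitory interneuron markers (5 genes) summed there to 167, 194 and 232 CPM in Cre P278KY and to 83.1 and 109 CPM in Cre WT. Excitatory interneuron markers (5 genes) summed to 52.3, 62.4 and 70.2 CPM in Cre P278KY and to 31.8 and 32.4 CPM in Cre WT. Cre WT mice 3 and 4, in pool 2, had 289 and 225 CPM of the inhibitory and 69.8 and 62.5 CPM of the excitatory markers. Of the 8 oligodendrocyte markers none passed over the 7 libraries and 6 had an unadjusted p under 0.05 (16.2% of all genes did). Skeletal muscle markers, 6 genes, summed to 9.71, 5.18 and 5.08 CPM in Cre P278KY and to 19.9, 113, 23.5 and 20.3 CPM in Cre WT. The part of these cells' RNA in the genotype difference was not tested.

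**Figure D3:**
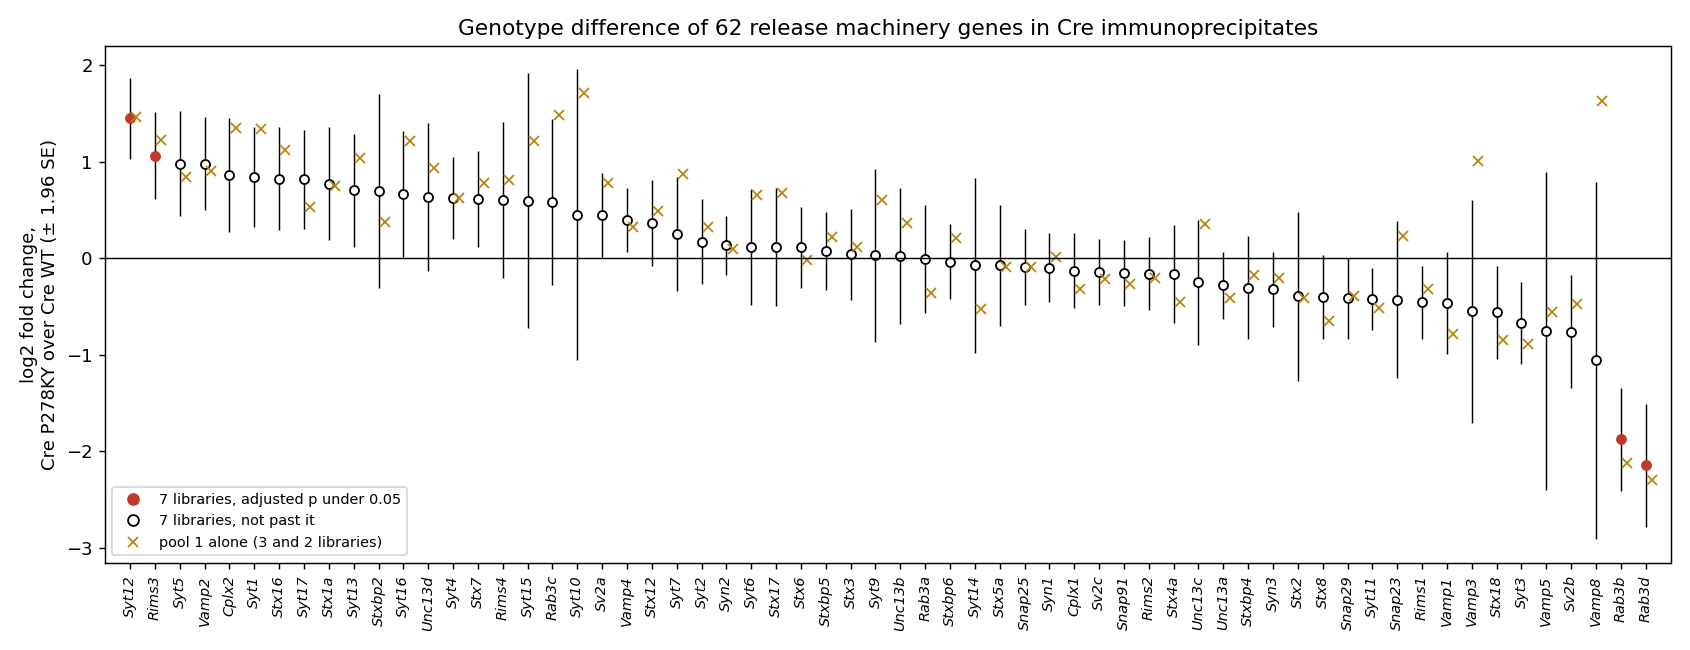
Log2 fold change of Cre P278KY over Cre WT for 62 of the 64 genes tested (circles with bars of the 95% interval, filled past the threshold) and the same within pool 1 alone (crosses). Syt12 and Rims3 lie at the high end and Rab3b and Rab3d at the low end, with crosses near the circles.

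Ratios of paralogs within a library, in TPM, do not depend on the scaling between libraries. The Vamp1 to Vamp2 ratio was 2.65, 2.77 and 2.62 in Cre P278KY, against 8.06, 9.25, 6.56 and 5.26 in Cre WT. It was 1.03 to 1.52 (median 1.37) in NoCre P278KY, against 1.58, 1.62, 1.62, 1.92 and 2.50 in NoCre WT. In Cre libraries every P278KY ratio, all from pool 1, was below every WT ratio of pool 1 and of pool 2, and the mean log2 ratio differed by -1.41. Only in pool 1 could the Cre genotypes be compared within a pool. With 3 libraries against 4, the exact two-sided permutation test cannot give a p under 0.0571, which is the value here (0.137 adjusted over the 12 pairs). The ratio of Vamp1 to Vamp2 was also lower in all NoCre P278KY than in all NoCre WT libraries (-0.44, exact permutation p = 0.00433, the smallest possible, 0.0519 adjusted).

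The Cplx1 to Cplx2 ratio was 24.1, 22.2 and 19.1 in Cre P278KY, against 62.3, 76.9, 32.0 and 26.7 in Cre WT. The Syt2 to Syt1 ratio was 3.24, 3.53 and 2.62 in Cre P278KY, against 6.96, 3.73, 4.84 and 4.22 in Cre WT. The Sv2a to Sv2b ratio was 0.658, 0.556 and 1.16 in Cre P278KY, against 0.267, 0.374, 0.275 and 0.402 in Cre WT. In these 3 pairs the groups did not overlap either, and in all 5 of 12 pairs were at the smallest p the design allows, and none could pass. The other 7 pairs overlapped.

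Against NoCre, 9 of 12 ratios differed in P278KY mice and 7 in WT mice (exact permutation tests, adjusted p = 0.0317 and 0.0272 for each, smallest p possible 0.0238 and 0.0159). The mean log2 ratio of Vamp1 to Vamp2 was 1.42 in Cre P278KY, against 0.42 in NoCre P278KY, and 2.83 in Cre WT, against 0.86 in NoCre WT. That of Cplx1 to Cplx2 was 4.44 in Cre P278KY, against 2.45 in NoCre P278KY, and 5.49 in Cre WT, against 2.28 in NoCre WT. That of Sv2a to Sv2b was lower in Cre, at -0.41 in Cre P278KY, against 1.01 in NoCre P278KY, and -1.63 in Cre WT, against 1.34 in NoCre WT. The Snap25 to Snap23, Unc13a to Unc13b and Rab3a to Rab3c ratios were higher in Cre in both genotypes, and that of Syn1 to Syn2 was lower in P278KY mice (1.25 in Cre P278KY, against 2.03 in NoCre P278KY). The ratio of Syt2 to Syt1 passed in P278KY mice (1.64 in Cre P278KY, against 0.67 in NoCre P278KY) and had an adjusted p of 0.0714 in WT mice (2.26 in Cre WT, against 1.31 in NoCre WT).

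**Figure D4:**
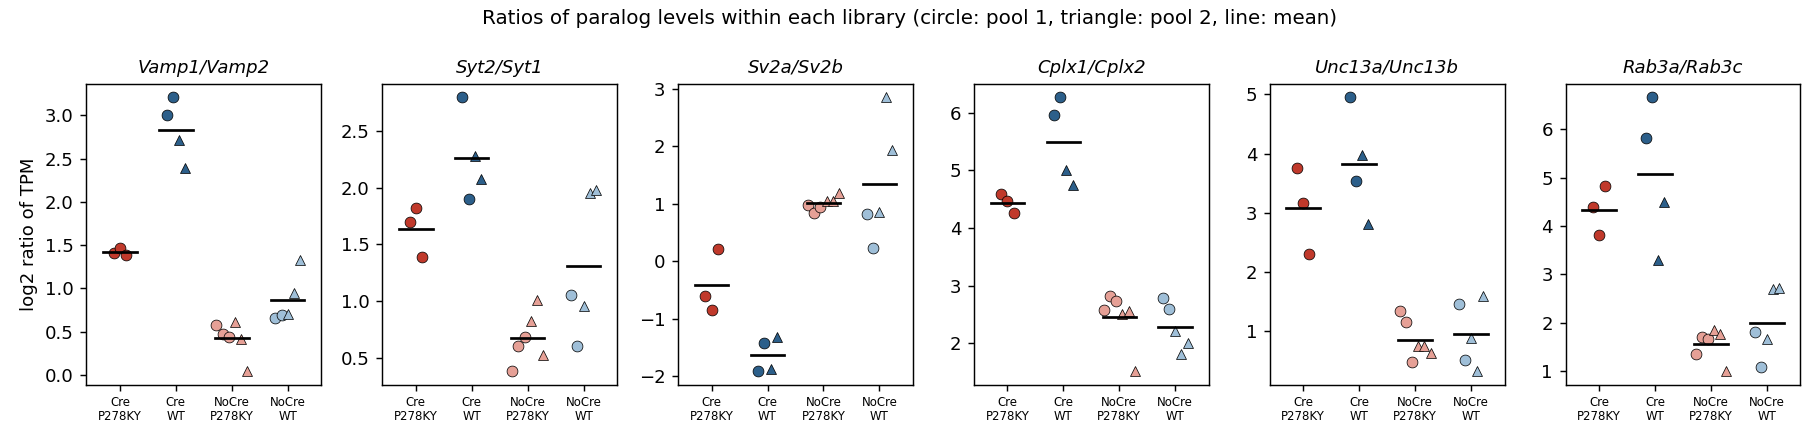
Log2 ratio of the TPM of 6 paralog pairs in each library, with circles for pool 1, triangles for pool 2 and lines for the group mean. Cre P278KY lies between the mean of Cre WT and the NoCre libraries for Vamp1 to Vamp2 (1.42, against 2.83 in Cre WT) and Cplx1 to Cplx2 (4.44, against 5.49 in Cre WT).

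**Figure D5:**
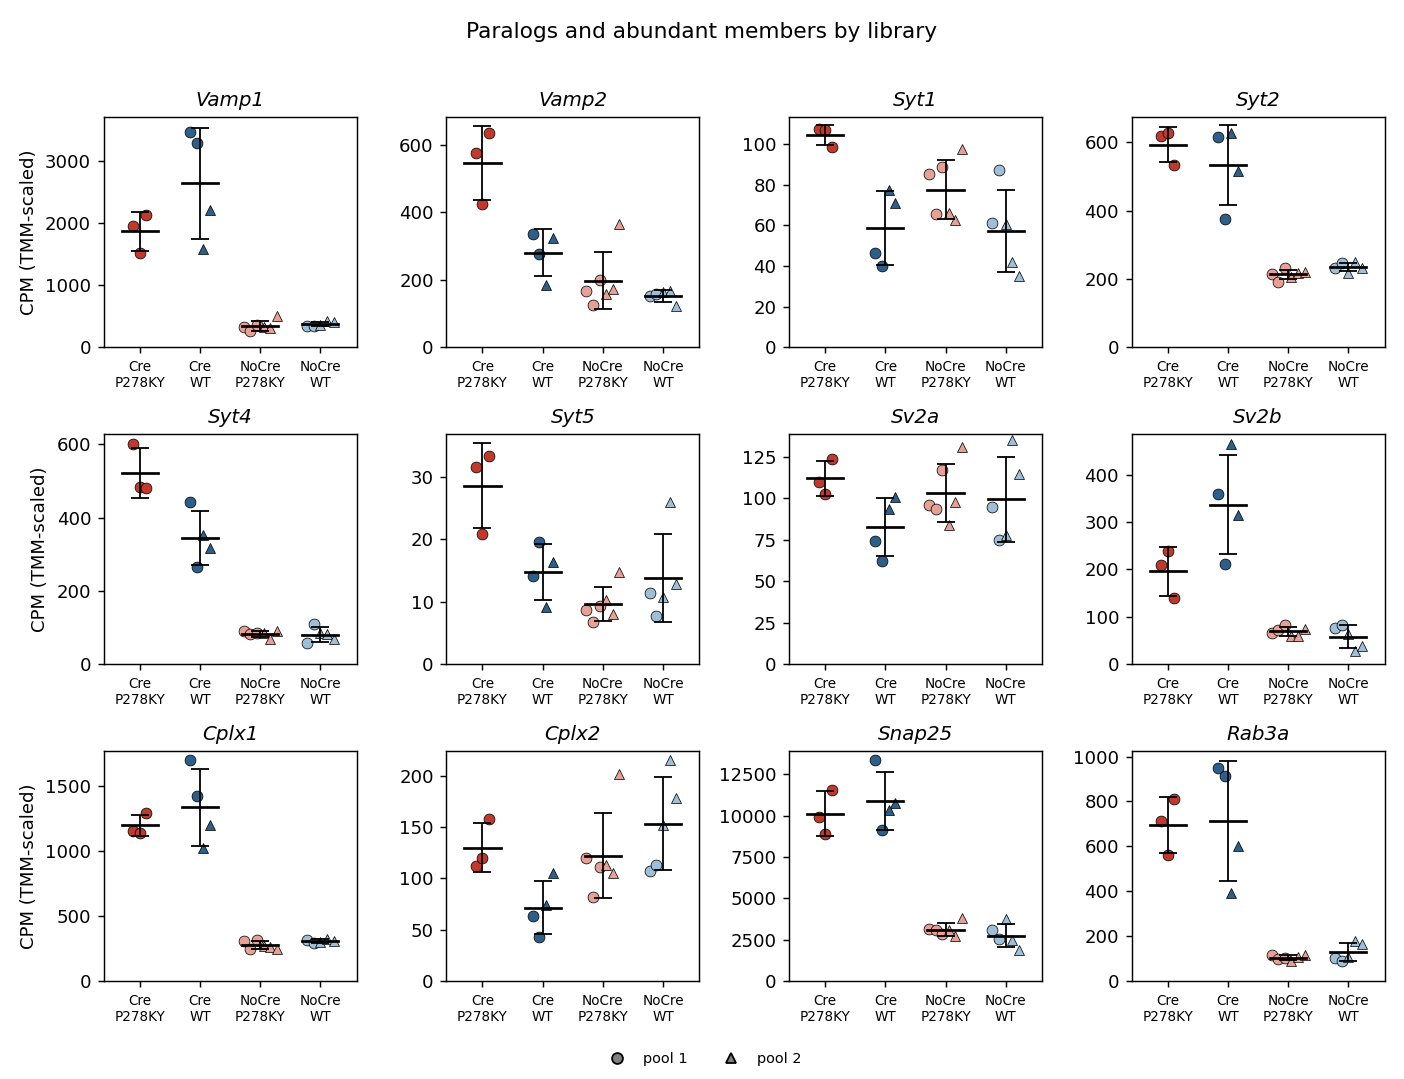
CPM by library of 12 genes in the 4 groups, with circles for pool 1, triangles for pool 2, lines for the mean and bars for 1 SD. Vamp2 and Syt1 are higher in all Cre P278KY than in all Cre WT libraries, and Cre WT mice 1 and 2 (pool 1) are the highest for Vamp1, at 3469.7 and 3293 CPM.

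Among NoCre libraries none of the 66 genes passed between P278KY and WT by edgeR (0.0233% of all 17133 genes did), nor by DESeq2 or limma voom, and 4 had an unadjusted p under 0.05, against 6.77% of all genes. Groups did not overlap for 2 (0.718% of all genes). One was Syt6, with 18.8 to 24.4 (median 20.3) CPM in NoCre P278KY, against 17.6, 18.3, 12.7, 13.5 and 8.68 CPM in NoCre WT (0.58, 95% interval 0.13 to 1.02, adjusted p = 0.71). The other was Stx11, an immune-cell syntaxin, which had 0 to 0.673 (median 0.108) CPM in NoCre P278KY, against 1.40, 1.32, 1.79, 2.59 and 1.22 CPM in NoCre WT (-2.52, adjusted p = 0.687). Among the 10 genes with the smallest p were also Stx17 at 0.60, Syn1 at 0.41, Stxbp4 at 0.49, Syt1 at 0.44, Syt5 at -0.51, Syn3 at 0.35 and Rab3b at -0.46 (log2, adjusted p = 0.725 to 0.742). The 17 core genes had log2 fold changes of -0.37 to 0.44 here. In the same comparison 2 of the 8 cholinergic markers were lower in NoCre P278KY and 5 had an unadjusted p under 0.05, with a median of -1.09, against -0.01 over all genes (log2). Chodl was at -2.55 ± 0.28 (SE, adjusted p = 5.96e-05) and Chat at -1.45 ± 0.25 (SE, adjusted p = 0.034). Each NoCre group is also the control of its enrichment above, and the part of this difference there was not tested. NoCre P278KY mouse 6 stood apart, with Syn1 at 352 CPM, against 135 to 181 CPM in the other 5 mice of its group. Also without it none of the release genes passed, while 6 of all 17089 genes did.

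The genotype difference in Cre was set against that in NoCre by the interaction, which is also the difference between the 2 enrichments. Syt12 alone passed among the 66 genes (1.52%, against 0.654% of all genes), at 1.53 ± 0.35 (log2, SE, adjusted p = 0.0374). It was lower in Cre than in NoCre in WT mice (-1.18, adjusted p = 0.000359) and had a value of 0.35 (adjusted p = 0.224) in P278KY mice. Over 28 alternatives its log2 value ran from 1.11 to 1.69, with adjusted p of 0.00403 to 0.543, and it passed in 14. The next were Rab3b (-1.45, adjusted p = 0.144), Syt5 (1.46, adjusted p = 0.159), Rims3 (1.198, adjusted p = 0.164), Cplx2 (1.19, adjusted p = 0.185) and Rab3d (-1.961, adjusted p = 0.288), none of them past the threshold. At an unadjusted p under 0.05 were 11 of the 66 genes, against 11.1% of all genes. For the 17 core genes the interaction was -1.02 to 1.19.

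The other genes of the vesicle cycle, given as 4 lists, were set beside the 69. Between Cre P278KY and Cre WT none of the 52 entries (51 genes, Pclo with 2 identifiers) passed in edgeR, and 6 had an unadjusted p under 0.05 (16.2% of all genes did). Among the nearest were Eps15, an endocytic adaptor, at 0.91 ± 0.24 (SE, adjusted p = 0.087), and Nsf, the ATPase that takes SNARE complexes apart, at -0.58 ± 0.16 (SE, adjusted p = 0.097). Against NoCre, 33 were higher and 7 lower in P278KY mice (28.2% and 31.2% of all genes), and 33 were higher and 9 lower in WT mice (28.5% and 31.2% of all genes). Of the 13 genes for SNARE recycling and chaperones, 11 were higher and none lower in P278KY mice and 10 and none in WT mice. In both, Sncg (gamma-synuclein) and Napg (gamma-SNAP) were among those with the smallest p, which is not an order by size of the rise. Sncg rose by 4.49 ± 0.34 (SE, adjusted p = 1.7e-09) in P278KY mice and by 4.66 ± 0.36 (SE, adjusted p = 2.36e-09) in WT mice. Of the 10 vesicle membrane genes 8 were higher and 1 lower in each genotype, with Atp6v1a, a subunit of the proton pump that fills vesicles, at 1.87 ± 0.17 (SE, adjusted p = 1.33e-08) in P278KY mice and 1.88 ± 0.17 (SE, adjusted p = 1.1e-08) in WT mice.

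Of the 19 vesicle retrieval genes 12 were higher and 3 lower in P278KY mice (28.2% and 31.2% of all genes). In WT mice 13 were higher and 4 lower (28.5% and 31.2% of all genes). Clathrin heavy chain (Cltc) rose by 1.93 ± 0.19 (SE, adjusted p = 3.74e-08) in P278KY mice and 1.86 ± 0.19 (SE, adjusted p = 4.6e-08) in WT mice. Of the active zone scaffolds, 2 of 10 entries were higher and 3 lower in P278KY mice, and 2 were higher and 4 lower in WT mice. Ppfia2, a liprin, rose by 1.01 ± 0.17 (SE, adjusted p = 3.87e-05) in P278KY mice and 0.77 ± 0.17 (SE, adjusted p = 0.000452) in WT mice, while 1 of the 2 identifiers of Pclo (piccolo) fell in P278KY mice, at -1.13 ± 0.25 (SE, adjusted p = 0.00068), and Erc2, a scaffold of the ELKS family, fell in WT mice, at -0.75 ± 0.21 (SE, adjusted p = 0.00488). The medians of the 4 lists in P278KY mice were 1.09 for SNARE recycling, 1.18 for vesicle membrane, 0.95 for retrieval and -0.24 for scaffolds, beside 0.01 for the release genes and -0.13 for all genes (log2). In WT mice they were 1.32, 1.30, 1.04 and -0.40, beside -0.03 and -0.12.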

How the data were processed

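Ribosome-associated mRNA was profiled in 18 libraries of 4 groups formed from the genotype labels, each library with a title of its own. The titles hold a number that several libraries share, within and across groups, and the labels do not say what it marks. Whether libraries of 1 group that share it are independent mice cannot be told. Each library has a table of genes in which the authors deposited expected counts beside TPM (column names per the file headers). Per the submitters' processing notes, the tools were Bowtie2 2.2.0 and RSEM 1.2.12. The sources used here give no genome build, annotation or strand setting, and without strand reads of overlapping genes cannot be told apart (16 of the 69 genes share exonic bases with a gene on the opposite strand). Positions are those of GENCODE M21 (GRCm38), matched by gene identifier. Counts were tested in every comparison, TPM served for levels and paralog ratios, and CPM were computed from the deposited expected counts.

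Expected counts were rounded to whole numbers, filtered with filterByExpr, TMM-scaled and tested by quasi-likelihood in edgeR 4.0.16 (R 4.3.3, two-sided, robust), with Benjamini-Hochberg adjustment over all genes and a threshold of 0.05. The Cre genotype difference used the 7 Cre libraries (64 of the 69 genes tested). The other 4 comparisons used 1 fit of all 18 libraries with 4 group means (66 tested, with Stx11 and Stx19 in addition). SE is the absolute log2 fold change over the square root of F, and 95% intervals are normal ones from that SE. Paralog ratios used TPM + 0.1 and exact two-sided permutation tests, adjusted over 12 pairs. DESeq2 1.42.0, voom of limma 3.58.1, other scalings and filters, pool, sex, the shared title number and leaving out each library were alternatives. The members and lists were chosen with earlier results of these data known. Named are 17 core genes in every comparison, in the genotype comparisons the called genes or the 10 with the smallest p, and in the enrichments the 10 largest rises and falls among called genes whose mean log2 CPM exceeds 1, and of the other lists up to 3 with the smallest p. Some genes of these lists are not reported here singly, though they enter the counts of genes and pairs called. Genes from pool 1 alone were named after their values were seen. Library totals limit precision, and counting error alone understates the spread, since PCR copies are not independent molecules. The test code was checked on simulated data.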

Additional observations from a re-analysis of the deposited data

Results flagged for a closer look

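The outlier tests covered Cre WT, NoCre P278KY and NoCre WT, not Cre P278KY. Chance flags about 1 in 20, but tests that share libraries and genes are not independent, so no excess is read from their share. Single libraries lay far from the rest of their group in 17 of 156 group tests (10.9%). Of these, 12 were NoCre P278KY mouse 6, in CPM Cplx2 at 202, Rims1 at 75.5, Snap25 at 3818, Stx17 at 38.7, Stxbp2 at 20.0, Sv2c at 188, Syn1 at 352 and Vamp2 at 365. Its log2 TPM ratios that stood apart were Cplx1 to Cplx2 at 1.52, Rims1 to Rims2 at 1.71, Syn1 to Syn2 at 3.50 and Vamp1 to Vamp2 at 0.044. NoCre WT mouse 4 stood apart with Syt5 at 25.9 and Unc13b at 32.3 CPM. NoCre P278KY mouse 1 had Unc13c at 170.2 CPM. In Cre WT, mouse 2 had Stx16 at 12.5 CPM, the lowest of its group, and mouse 3 had Syn3 at 24.6 CPM, the highest. Between Cre and NoCre mice the genotype difference of Syt12 differed by 1.53 (log2, edgeR interaction, adjusted p = 0.0374), and it was higher in all 3 Cre P278KY than in all 4 Cre WT libraries.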

How the results depend on the processing

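Between Cre P278KY and Cre WT, 2 genes higher and 2 lower became 0 higher with library size only, 4 with no low-count filter, 5 with DESeq2, 11 higher and 5 lower with pool as a covariate and 9 and 5 within pool 1. Of all genes tested, 179 of 14717 were higher in the main fit, 222 of 24652 with no filter and 426 of 14717 with DESeq2. With library size only 0.632% of all genes were higher. With pool as a covariate 5.44% were higher and 5.95% lower, and within pool 1 4.3% and 4.81%. Leaving out each library gave 0 to 2 higher and 0 to 3 lower. In Cre WT over NoCre WT the genes lower were 9 with library size only (19.5% of all genes were) and 11 within pool 2 (15.6% of all genes). Leaving out each library there gave 22 to 25 higher and 18 to 23 lower. In Cre P278KY over NoCre P278KY leaving out each library gave 23 to 25 and 15 to 19, and between NoCre groups none. For the interaction, 0 genes were higher with library size only, with no filter and with NoCre WT mice 4 and 5 left out (1 lower), 2 with pool as a covariate, and 2 higher and 2 lower within pool 1, and leaving out each library gave 0 to 2 and 0 to 1. Among all genes, 77 of 17133 were higher with the covariate, and 201 of 17141 were higher and 205 lower within pool 1. Paralog pairs called within pool 1 were 0 in both enrichments, where so few libraries cannot reach the threshold, and leaving out each library gave 0 to 10 in P278KY mice and 0 to 9 in WT mice. The 0 in P278KY mice came without any 1 of the Cre P278KY libraries, where those left are also too few to reach the threshold. Within pool 2 the P278KY enrichment could not be fitted, since Cre P278KY had no library there. Other causes of these shifts were not tested.

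With the shared title number as a replicate block, the genotype difference in Cre had 6 genes higher and 4 lower. Of all 14717 genes tested, 789 were higher and 875 lower in that fit. The only number found in both Cre groups was that of Cre P278KY mice 1 and 3 (pool 1) and Cre WT mice 3 and 4 (pool 2). That fit therefore compared the genotypes across the pools, not within a pool. The labels do not say what the numbers mark, and libraries of 1 group share them too. Over 12 pairs of same-numbered libraries the correlation of deviations from the group means ran from -0.123 to 0.176.

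The following log2 values had the opposite sign of that reported. With library size only, Rab3a 0.092 (Cre P278KY over Cre WT), Sv2a 0.19 and Stx1a 0.26 (Cre WT over NoCre WT). With limma voom, Rab3a 0.059 (Cre P278KY over Cre WT). With pool as a covariate, Syn1 0.016 (Cre P278KY over Cre WT). Within pool 1, Syn1 0.016, Sv2c to Sv2b -0.14, Snap25 to Snap23 -0.28 and Rims1 to Rims2 0.23 (Cre P278KY over Cre WT), Syt1 -0.75, Stx1a 0.11 and Sv2c to Sv2b 0.58 (Cre WT over NoCre WT), Rims1 0.033 (Cre P278KY over NoCre P278KY). With the title number as replicate block, Syt2 -0.0060, Vamp1 0.074, Cplx1 0.11 and Rab3a 0.58 (Cre P278KY over Cre WT, compared across the pools), Syt1 -0.0056 (Cre WT over NoCre WT), Sv2a -0.24, Cplx2 -0.22 and Rims1 0.035 (Cre P278KY over NoCre P278KY), Syt5 0.16 and Rab3b 0.20 (NoCre P278KY over NoCre WT). With sex as a covariate, Rab3a 0.15 (Cre P278KY over Cre WT). With RLE factors, Syt1 -0.11 and Unc13a -0.12 (Cre WT over NoCre WT), Cplx2 -0.031 (Cre P278KY over NoCre P278KY). With CPM filter, Unc13a -0.015 (Cre WT over NoCre WT). With DESeq2, Syt1 -0.11 and Unc13a -0.12 (Cre WT over NoCre WT), Cplx2 -0.031 (Cre P278KY over NoCre P278KY). Within pool 2, Unc13a -0.31 (Cre WT over NoCre WT). With NoCre WT mice 4 and 5 left out, Syt1 -0.27 and Stx1a 0.11 (Cre WT over NoCre WT). Leaving out each library in turn, the values that changed sign ran as follows: Snap25 -0.19 to 0.022, Cplx1 -0.24 to 0.0063, Rab3a -0.21 to 0.17, Snap25 to Snap23 -0.33 to 0.52 and Rims1 to Rims2 -0.40 to 0.096 (Cre P278KY over Cre WT), Syt1 -0.12 to 0.24, Stx1a -0.28 to 0.078 and Unc13a -0.088 to 0.15 (Cre WT over NoCre WT), Cplx2 -0.050 to 0.34, Rims1 -0.14 to 0.11 and Sv2c to Sv2b -0.036 to 0.59 (Cre P278KY over NoCre P278KY). Of 2427 single values under alternatives, 2217 kept direction and side of the threshold, 112 no longer passed, 39 newly passed and 59 changed sign. Genes with few counts, such as Rab3d and Vamp8, are limited by depth.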
